A study of Mus musculus with 2 samples.

Results

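The H3K36me3 peaks on the AKT and SGK kinase genes, on the FOXO transcription factor genes and on *Gsk3a* were examined in mouse skin KCs. Members were 9 genes: *Akt1*, *Akt2*, *Sgk1*, *Sgk2*, *Sgk3*, *Foxo1*, *Foxo3*, *Foxo4* and *Gsk3a*. A peak was taken if its deposited annotation named a member or if it overlapped the annotated body of a member on GRCm38, and 37 of the 45575 deposited peaks met this rule. The 9 genes belong to 21938 protein-coding genes that could have been marked.

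The data came from primary KCs of C57BL/6 mice of 10 weeks with floxed *Setd2* alleles (*Setd2* fl/fl), which leave the gene in place unless a Cre recombinase is present. The labels name no Cre, and this was the only genotype. The epidermis was parted from the dermis with dispase and dissociated with trypsin. 1 ChIP library made with an antibody to H3K36me3 and 1 input library made up the series. The values below are from the peak table of the ChIP library alone, the sources used here do not give the number of mice behind it, and there were no replicates, so no test between samples was possible. In such a bulk library, fewer marked cells and less mark per cell cannot be told apart. The depth is not known.

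AKT1 and AKT2 are serine/threonine kinases that are switched on downstream of PI3K by the kinases PDK1 and mTORC2. SGK1, SGK2 and SGK3 are related kinases that use the same activators and share many substrates with AKT. FOXO1, FOXO3 and FOXO4 are forkhead transcription factors that leave the nucleus once AKT or SGK has phosphorylated them, and GSK3A is a kinase that AKT phosphorylation restrains. H3K36me3 is placed by SETD2, which travels with elongating RNA polymerase II, so the mark is known to lie along transcribed gene bodies and to be sparse at promoters.

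All members except *Sgk2* carried H3K36me3 in the KCs, but over very different parts of their bodies. 8 of 9 members had at least 1 bp of a peak between the annotated start and end of the gene, against 51.4% of all protein-coding genes (11268 of 21938, exact Clopper-Pearson 95% interval 50.7 to 52.0%, counting error only). The covered share, which is the percentage of gene body bases that lay in peaks, was 74.8% in *Akt1*, 71.8% in *Gsk3a*, 49.6% in *Akt2*, 37.1% in *Foxo3*, 36.5% in *Sgk3*, 21.0% in *Foxo4*, 10.0% in *Foxo1*, 4.26% in *Sgk1* and 0% in *Sgk2*. Only *Akt1* and *Gsk3a* were covered over at least 50% of the body, which is 2 of 9 members where 23.8% of protein-coding genes were. The median of the 9 covered shares was 36.5%, compared with 1.07% over all protein-coding genes and 46.4% over those with a peak. Thus a peak was more frequent among the members than among all genes. Their median covered share, with unmarked *Sgk2* included, lay under that of marked genes. Neither comparison allowed for gene length. Each share was also set against the median of protein-coding genes of 0.8 to 1.25 times the length. It lay above that median in *Akt1* (median 22.4%), *Akt2* (23.3%), *Sgk3* (14.0%), *Foxo3* (16.1%), *Foxo4* (0%) and *Gsk3a* (0%). It lay below it in *Sgk1* (9.78%), *Sgk2* (26.2%) and *Foxo1* (17.6%). The presence of a peak was not compared with genes of similar length. No test was run on these counts and shares, since the members were not drawn at random.

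**Figure D1:**
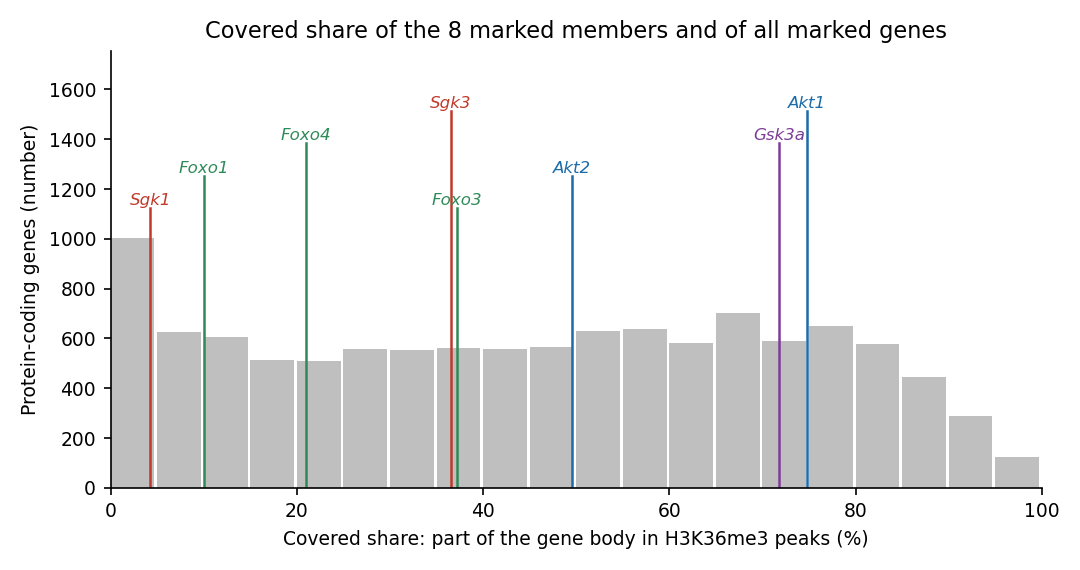
Covered share of the gene body (percent, 5-point bins) for all protein-coding genes with a peak (grey bars, number of genes) and for the 8 members with a peak (coloured lines: AKT blue, SGK red, FOXO green, GSK3A purple). The members run from *Sgk1* at 4.26% to *Akt1* at 74.8%, and *Sgk2*, with no peak, is not drawn.

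The order of the covered shares is a description of 1 library, and neighbours such as *Foxo3* (37.1%) and *Sgk3* (36.5%) have no measured spread by which to part them. The fold enrichment, the authors' ratio of ChIP signal to local background in a peak, gave another order. It was highest at *Sgk1* (6.08), followed by the best peaks of *Akt2* (3.68), *Foxo1* (3.57), *Akt1* (3.52), *Gsk3a* (3.42), *Sgk3* (3.28), *Foxo3* (3.23) and *Foxo4* (2.83). *Sgk1* was therefore the member with the smallest covered share among those with a peak and the one with the strongest peak. The former does not hold with only peaks at a fold enrichment of at least 3, a P below 1e-05 or a q below 0.01, which left *Foxo1* at 3.62, 3.62 and 4.05% and *Sgk1* at 4.26%.

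*Sgk1* encodes a kinase whose mRNA is rapidly induced by growth factors, glucocorticoids and cell stress, and it showed the clearest isoform difference. The annotated gene spans chr10:21882184-21999903 on the plus strand (117720 bp) with 13 transcripts, 9 of them protein-coding. A lone peak at chr10:21994890-22000577 (5688 bp) lay at its 3′ end and ran 674 bp past it. Its fold enrichment of 6.08 came with a −log10 P of 13.9 and a −log10 q of 10.3, and only 5 of the 45575 peaks had a higher fold enrichment. The low covered share of the whole gene and the high enrichment of its peak concern different stretches of DNA, as the starts of the transcripts show.

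When the *Sgk1* body was cut at the starts of its coding transcripts, none of the 5 upstream segments (46286, 50202, 13551, 1667 and 776 bp) held a base in a peak, whereas the last, of 5238 bp, was covered over 95.7%. That last segment is the whole length of Sgk1-201, the principal isoform in the annotation, whose start lay 224 bp before the peak. The covered share was 83.3% for Sgk1-202, 65.3% for Sgk1-203, 23.6% for Sgk1-213 and 4.25% for Sgk1-204, which begins at the distal start. These transcripts end at nearly the same base, so their shares differ through the length of unmarked DNA that each adds at its 5′ end. Sgk1-205, a coding transcript that ends before the peak, had none.

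Measured over the principal transcript in place of the gene, *Sgk1* was the most widely covered member, at 95.7%, followed by *Akt1* at 77.0%. This was above the principal transcripts of 99.4% of 21846 other protein-coding genes. Exon 1 of Sgk1-201 held no peak base and exons 2 to 12 were fully inside the peak. The upstream exons used by the longer isoforms were outside it. The kinase domain is encoded by the shared exons, whereas the isoforms differ in the N-terminus, which in Sgk1-201 is known to mark the protein for rapid degradation.

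To show where the isoforms part, the first 60 coding bases of each full-length coding isoform are printed, with the start codon in capitals. They were read from the GENCODE vM21 transcript sequences (GRCm38, plus strand), beginning at the annotated start codon. The start codons lie at chr10:21882639, 21994971, 21992374, 21994064 and 21994750, in the order shown.
Sgk1-204: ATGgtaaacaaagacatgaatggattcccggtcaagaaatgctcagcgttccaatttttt
Sgk1-213: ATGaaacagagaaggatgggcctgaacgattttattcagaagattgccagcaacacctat
Sgk1-203: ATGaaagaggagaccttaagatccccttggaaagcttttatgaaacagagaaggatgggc
Sgk1-202: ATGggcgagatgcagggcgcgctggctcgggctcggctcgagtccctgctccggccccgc
Sgk1-201: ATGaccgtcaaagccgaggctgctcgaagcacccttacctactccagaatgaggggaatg

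Of these start codons, only that of Sgk1-213, which lies in exon 2, was inside the peak. All 60 bases shown for it were in the peak, as were 26 of the 60 for Sgk1-203, the part that its exon 2 contributes, and 0 for Sgk1-204, Sgk1-202 and Sgk1-201. The isoform-specific N-terminal codons of these 3 were thus outside the peak, upstream of it.

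The promoter windows of *Sgk1* are shown for the start farthest from the peak and the start of the principal isoform, 224 bp before it. RefSeq (GRCm38.p6) promoter sequences matched 6 of the 9 members by symbol, with 15 starts in all, and the 250 bases before each start were read. Not matched were *Sgk2*, *Sgk3* and *Foxo4*. None of the 15 windows held a base in a peak. Capitals mark each CG and each match to 1 of the motifs searched, on either strand.
Sgk1 distal start, chr10:21881934-21882183, plus strand: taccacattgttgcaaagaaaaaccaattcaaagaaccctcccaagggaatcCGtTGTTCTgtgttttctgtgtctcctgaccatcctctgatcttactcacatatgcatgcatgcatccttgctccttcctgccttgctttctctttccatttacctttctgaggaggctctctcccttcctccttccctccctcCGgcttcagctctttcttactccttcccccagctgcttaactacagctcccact
Sgk1 proximal start, chr10:21994416-21994665, plus strand: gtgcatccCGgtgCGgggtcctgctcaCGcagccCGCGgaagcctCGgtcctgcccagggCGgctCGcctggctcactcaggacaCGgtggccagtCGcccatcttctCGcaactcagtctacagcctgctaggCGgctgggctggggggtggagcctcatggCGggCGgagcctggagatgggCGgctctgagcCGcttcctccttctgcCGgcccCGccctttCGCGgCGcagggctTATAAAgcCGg

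The proximal window, which precedes Sgk1-201, held 22 CG, with a GC content of 70.4%, and the distal window 2 CG with 48.4%, while the median over 32817 promoters was 6 CG (quartiles 2 and 16). A FOXO site was searched as GTAAACA, which 3.16% of all promoters held. A TATA box was searched as TATAAA (12.4% of promoters) and a cyclic AMP element as TGACGTCA (1.55%). The core of a glucocorticoid response element was searched as AGAACA (16.1%), and the CArG box of serum response factor by its consensus (1.47%). The proximal window of *Sgk1* held a TATA box, with its first base 11 bases before the start. The distal window held the glucocorticoid core, on the minus strand. Of the 4 other *Sgk1* windows, the one 110039 bp into the gene held 1 TATA box and 1 glucocorticoid core. The one 111706 bp into it held 3 glucocorticoid cores. A pair of these faced each other on opposite strands with 3 bases between, an inverted repeat whose share over all promoters was not counted. A match is a description of the letters and says nothing of binding.

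**Figure D2:**
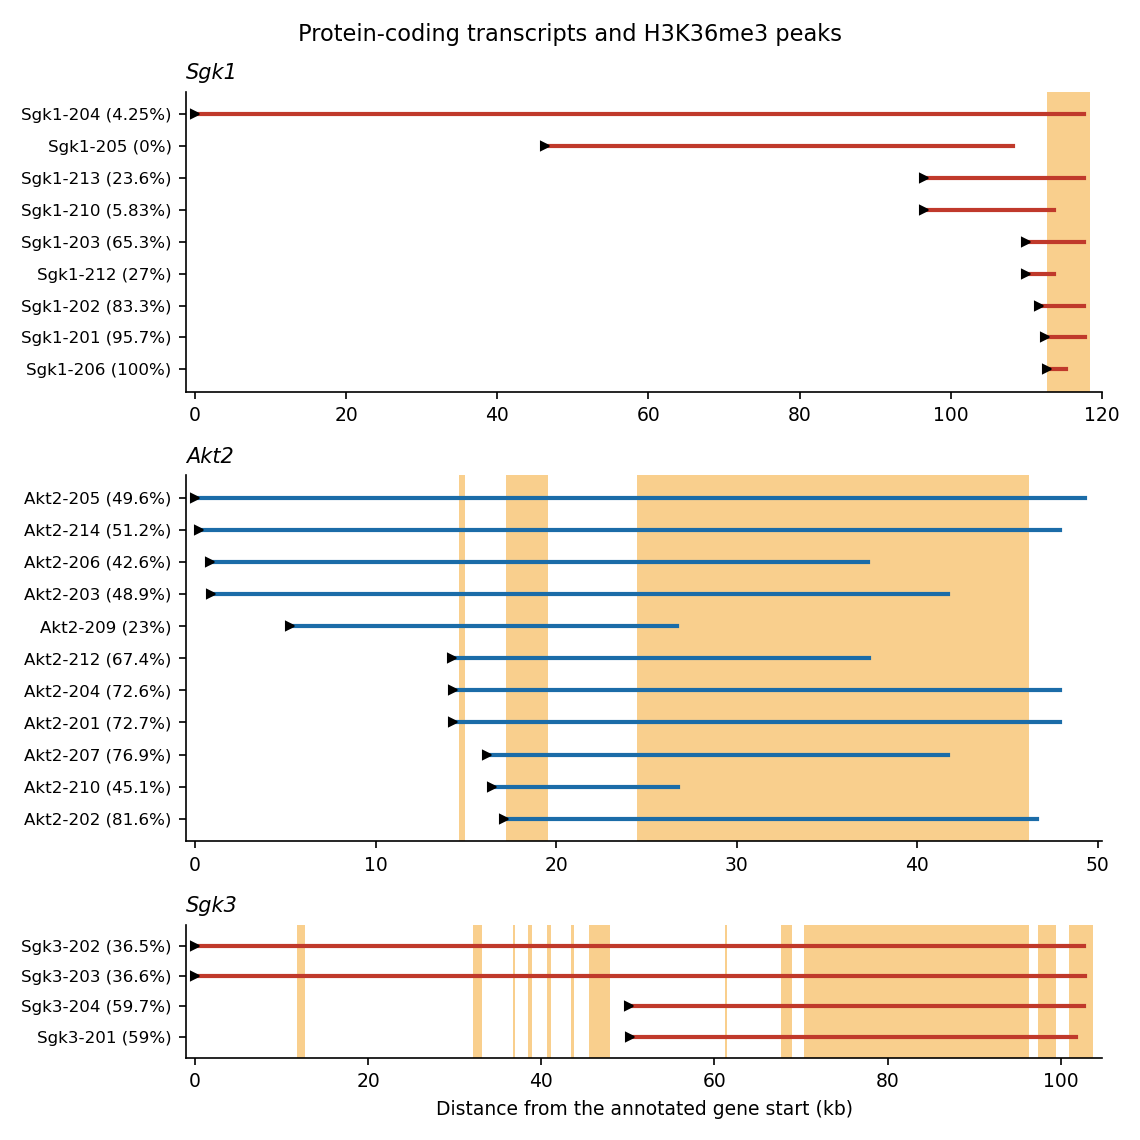
Protein-coding transcripts of *Sgk1*, *Akt2* and *Sgk3* as lines from start (black arrowhead) to end, in kb from the annotated gene start, with H3K36me3 peaks as orange bands and the covered share of each transcript in brackets. The *Sgk1* band begins 224 bp after the start of Sgk1-201, and the *Akt2* bands lie downstream of the start of Akt2-201. In *Sgk3* the widest band lies downstream of both groups of starts.

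*Sgk2* and *Sgk3* differed from *Sgk1* and from each other. *Sgk2*, which is known mainly from liver, kidney and pancreas, spans chr2:162987330-163014127 (26798 bp) and held no peak on its body, and none was assigned to it. H3K36me3 too weak to be called as a peak was not detectable here. The median covered share of 2695 other protein-coding genes of 0.8 to 1.25 times its length was 26.2%.

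*Sgk3* encodes a kinase that is held at endosomes by a phosphoinositide-binding PX domain. It spans chr1:9798107-9900845 on the plus strand (102739 bp) and carried 12 peaks, the most of any member, of 268 to 25956 bp with a fold enrichment of 2.56 to 3.28. A peak of 25956 bp at chr1:9868483-9894438 (fold enrichment 3.28, −log10 P 4.74) held most of its marked bases, and this was the widest peak on any member. Exons 1 to 3 of Sgk3-202 held no peak base, exons 4 to 16 were fully covered and exon 17 was covered over 83.8%.

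The inner start of *Sgk3* lay 50165 bp into the gene. The 50165 bp before the start of Sgk3-204 were covered over 12.3%, by 7 peaks of 302 to 2445 bp with a fold enrichment of 2.56 to 3.06. The 52574 bp after that start were covered over 59.7%. Both groups of coding transcripts share the marked exons, so the table does not part their use. Unlike *Sgk1*, the DNA upstream of the inner start was not free of peaks. Intron 1 of Sgk3-202, of 66884 bp, was covered over 9.63%.

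*Akt1* was the most widely covered member over the gene body, although at a P below 1e-05 its share was 47.3% and that of *Gsk3a* stayed at 71.8%. The gene spans chr12:112653821-112674884 on the minus strand (21064 bp) and held a peak of 5792 bp (fold enrichment 3.09, −log10 P 4.18) followed, towards the 3′ end, by one of 10127 bp (fold enrichment 3.52, −log10 P 5.41) that ran 159 bp past the end. Its covered share of 74.8% was above that of 90.4% of protein-coding genes and of 83.8% of 2700 genes of 0.8 to 1.25 times its length. Of the coding sequence, 98.6% lay in peaks. Exon 1 of Akt1-201, the principal isoform, held no peak base, exon 2 was covered over 18.7%, and exons 3 to 14 were fully covered.

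The peaks of *Akt1* began at its innermost coding start. The 608 and 2712 bp between the outer starts were free of peaks, and the 17744 bp from the start of Akt1-205 were covered over 88.8%, with the peak edge 23 bp from that start. The covered share was 88.3% for Akt1-205 and 77.0% for Akt1-201. The larger peak also took in the whole of *Mir6939*, a miRNA gene of 75 bp in intron 4 of Akt1-201 (chr12:112659277-112659351) on the same strand. Its mature sequences (RefSeq, GRCm38.p6) are printed, with the seed, bases 2 to 8, in capitals, since it is the only miRNA gene inside a member.
mmu-miR-6939-5p: cAGGCAGCugguugguggaag
mmu-miR-6939-3p: cCUCACUUgacccgcugcag

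The mark over *Mir6939* cannot be told apart from that of its host gene. Upstream of *Akt1*, the FOXO motif was found in the window before the outermost start, with its first base 161 bases before that start, and in no other window of a member.

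*Akt2*, which encodes the AKT kinase best known for insulin-stimulated glucose uptake, was marked downstream of its inner starts only. It spans chr7:27591552-27640826 on the plus strand (49275 bp). Its 3 peaks were 341 bp (fold enrichment 3.10, −log10 P 4.25), 2369 bp (3.32, −log10 P 4.86) and 21721 bp (3.68, −log10 P 5.79) wide. The first of them lay 14629 bp from the annotated gene start, whereas the median over marked protein-coding genes was 3873 bp (quartiles 2181 and 9324.75 bp).

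The 3 segments of *Akt2* upstream of the start of Akt2-212 (816, 4462 and 8967 bp) held no peak base. The segment of 1951 bp that begins at Akt2-212 and also holds the starts of Akt2-204 and Akt2-201 was covered over 17.5%, the next, of 914 bp, over 0%, and the 32165 bp from the start of Akt2-202 over 74.9%. The peak of 341 bp began 323 bp after the start of Akt2-201, and that of 2369 bp began 99 bp after the start of Akt2-202. The covered share was accordingly 49.6% for Akt2-205, which begins at the outermost start, 72.7% for Akt2-201 and 81.6% for Akt2-202. Akt2-205, Akt2-214, Akt2-204 and Akt2-201 are all principal in the annotation and had the same covered share of coding sequence (91.5%).

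The windows before the outer start of *Akt2* and before its first inner start of the RefSeq set are shown in the same way, as the start farthest from the peaks and a start close to them, with each CG in capitals. Neither held a match to a searched motif.
Akt2 outer start, chr7:27591302-27591551, plus strand: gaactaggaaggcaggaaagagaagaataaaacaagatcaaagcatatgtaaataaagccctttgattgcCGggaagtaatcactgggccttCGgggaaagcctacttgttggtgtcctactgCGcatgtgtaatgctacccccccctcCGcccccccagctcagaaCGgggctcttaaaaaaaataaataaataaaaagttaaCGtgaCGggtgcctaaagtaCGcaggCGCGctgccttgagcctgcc
Akt2 inner start, chr7:27605547-27605796, plus strand: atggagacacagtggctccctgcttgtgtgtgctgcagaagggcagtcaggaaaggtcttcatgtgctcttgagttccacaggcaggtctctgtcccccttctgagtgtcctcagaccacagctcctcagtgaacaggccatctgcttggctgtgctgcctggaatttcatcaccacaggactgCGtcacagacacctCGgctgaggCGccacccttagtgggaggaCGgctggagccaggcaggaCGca

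The outer window of *Akt2* held 10 CG and the inner window 5, whereas in *Sgk1* the window nearer to the peak held more CG than the distal one. The nearest peak was 14629 bp downstream of the outer start and 384 bp downstream of the inner start. The other 2 windows of *Akt2* held 0 and 2 CG.

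At the 3′ end, *Akt2* was the exception among the marked kinases. Its last peak ended 3088 bp before the annotated end, and exon 14 of Akt2-205 (2765 bp) held no peak base, while exons 3 to 13 were fully covered. Exons 1 and 2 of Akt2-205 held no peak base either. The annotated end is that of Akt2-205, and other isoforms end nearer to the peak edge at chr7:27637738. Akt2-214, Akt2-204 and Akt2-201 end at 27639448 to 27639453, and Akt2-202 at 27638170. The exons of Akt2-202 were covered over 85.6%, against 29.0% for those of Akt2-205. Taken over all its transcripts, the exons of *Akt2* were covered over 30.1% and its introns over 52.9%. In 7 of 8 marked members the exons were covered over a larger share than the introns, as in 73.0% of marked genes with an intron.

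**Figure D3:**
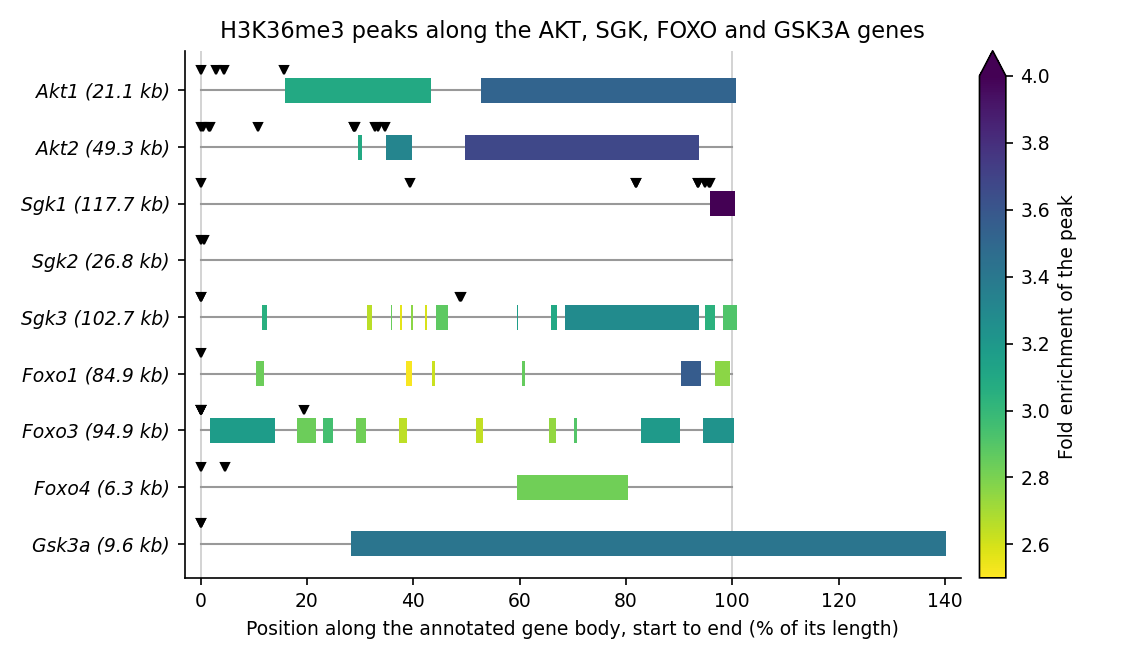
H3K36me3 peaks (bars, coloured by fold enrichment, with values above the scale in the darkest colour) along the body of each member, from its annotated start (0%) to its end (100%), with the starts of coding transcripts as black triangles. No bar covers the 0% line, *Sgk1* has a lone dark bar at the 3′ end, *Sgk2* has none, and the *Gsk3a* bar runs past the gene end.

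The FOXO genes were covered over smaller shares of the body than the AKT genes, but these genes differ in length. Ranked among protein-coding genes of similar length, by the rule used for *Akt1*, the families overlapped. *Foxo3* was above 70.1% and *Foxo4* above 68.0% of such genes, where *Akt2* was above 68.1%. Of the AKT and FOXO genes, *Akt1* (83.8%) still ranked highest and *Foxo1* (43.2%) lowest. *Foxo3* spans chr10:42181841-42276755 on the minus strand (94915 bp) and held 10 peaks of 503 to 11651 bp with a fold enrichment of 2.64 to 3.23. Its covered share was 37.1%, with 91.5% over exons and 32.4% over introns. The widest, at chr10:42263482-42275132, began 1623 bp from the annotated start, which is the smallest distance of any member.

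*Foxo3* was also the only marked member with more peak bases on the 5′ side of its midpoint. The 5′ side was covered over 42.3% and the 3′ side over 31.9%, so 43.0% of its peak bases lay on the 3′ side. This did not hold with only peaks at a fold enrichment of at least 3. All 7 members that then kept a peak, *Foxo3* included, had more peak bases on the 3′ side. The segment of 18389 bp before the start of Foxo3-205 was covered over 69.5%, and the 76526 bp from there to the gene end over 29.4%. This is the reverse of the order in *Sgk1*, *Sgk3*, *Akt1* and *Akt2*. The start of Foxo3-205 lay inside a peak of 3329 bp (fold enrichment 2.84). Exons 1 to 4 of Foxo3-203 were covered over 0, 43.4, 100 and 100%.

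*Foxo1* encodes the FOXO factor best known for the control of glucose production in liver. It spans chr3:52268336-52353221 on the plus strand (84886 bp), with 1 annotated transcript, and its 6 peaks of 359 to 3076 bp covered 10.0% of the body. Only 3.62% was covered at a fold enrichment of at least 3 and 4.05% at a q below 0.01. The marked bases lay mainly on exons, of which 56.5% were covered, against 4.76% of the introns. A peak of 3076 bp at chr3:52345112-52348187 (fold enrichment 3.57, −log10 P 5.76) covered 94.6% of exon 2 and all of intron 2. Exon 3 was covered over 58.0%, exon 1 over 0% and the 75616 bp of intron 1 over 3.99%.

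None of the 6 *Foxo1* peaks was assigned to *Foxo1* in the deposited annotation, which goes by the nearest start. All 6 were given to *Gm38034*, a gene model of 2069 bp on the same strand inside intron 1 that itself held no peak base. *Foxo1* was thus absent from the assigned genes although its coding sequence was covered over 64.5%. *Gm20402*, an antisense gene of 1001 bp at the start of *Foxo1*, held no peak.

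*Foxo4*, which lies on the X chromosome at chrX:101254528-101260873 (6346 bp, plus strand), carried 1 peak of 1333 bp with a fold enrichment of 2.83 and a −log10 P of 3.53. This covered 21.0% of the gene, with 88.1% of exon 2 and 8.90% of exon 3. The fold enrichment was higher than the best peak of only 8.72% of marked protein-coding genes. *Foxo4* was the marked member whose H3K36me3 rested on the weakest peak, and no peak remained on it at a fold enrichment of at least 3 or at a q below 0.01.

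*Gsk3a* encodes a kinase that restrains glycogen synthesis and β-catenin. It spans chr7:25228258-25237851 on the minus strand (9594 bp), and a peak of 10754 bp at chr7:25224392-25235145 (fold enrichment 3.42, −log10 P 5.09) covered 71.8% of it. Exons 1 and 2 of Gsk3a-201 held no peak base and exons 3 to 11 were fully covered. The peak was shared with neighbours, since 64.1% of its bases lay on *Gsk3a* and 29.0% on *Zfp526*, a zinc finger gene on the opposite strand, and it ran 3866 bp past the end of *Gsk3a*. It also held the whole of *9130221H12Rik*, an antisense gene of 1577 bp inside *Gsk3a*. ChIP reads carry no strand, so the mark of genes that share a peak cannot be told apart.

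The annotation gave *Gsk3a* a further peak, at chr7:25241729-25246564 (4836 bp, fold enrichment 3.13), that lay 3878 bp upstream of the gene and not on it. 82.8% of its bases lay on *Erf*, which encodes an ETS-family repressor and was covered over 48.8% of its body. This was the only peak assigned to a member that lay off its body.

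Assignment by nearest start and overlap with the gene body therefore gave different accounts of the members. 7 of 9 were assigned a peak, all but *Sgk2* and *Foxo1*, where 45.4% of protein-coding genes were. Of the 36 peaks on member bodies, 11 were assigned to another gene: the 6 on *Foxo1* and 5 of the 12 on *Sgk3*, of which 4 went to *Gm22607*, a small nuclear RNA gene of 105 bp, and 1 to *Gm6195*, a processed pseudogene of 357 bp. Neither of these genes held a peak base. Of the 8 marked members only *Foxo1* was left without an assigned peak, as were 16.5% of all marked protein-coding genes.

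14 of the 36 peaks were given a promoter class in the deposited table, where 40.2% of all peaks were. They lay on *Sgk3* (5), *Akt2* (3), *Akt1* (2), *Foxo3* (2), *Sgk1* (1) and *Gsk3a* (1). Yet none of the 8 marked members had its annotated start in a peak, and only 2.04% of marked genes did. The class takes a peak near the start of any annotated transcript, those that begin inside a gene included. Of the others, 14 were classed as intron, 6 as 3′ UTR, 1 as 5′ UTR and 1 as exon.

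**Figure D4:**
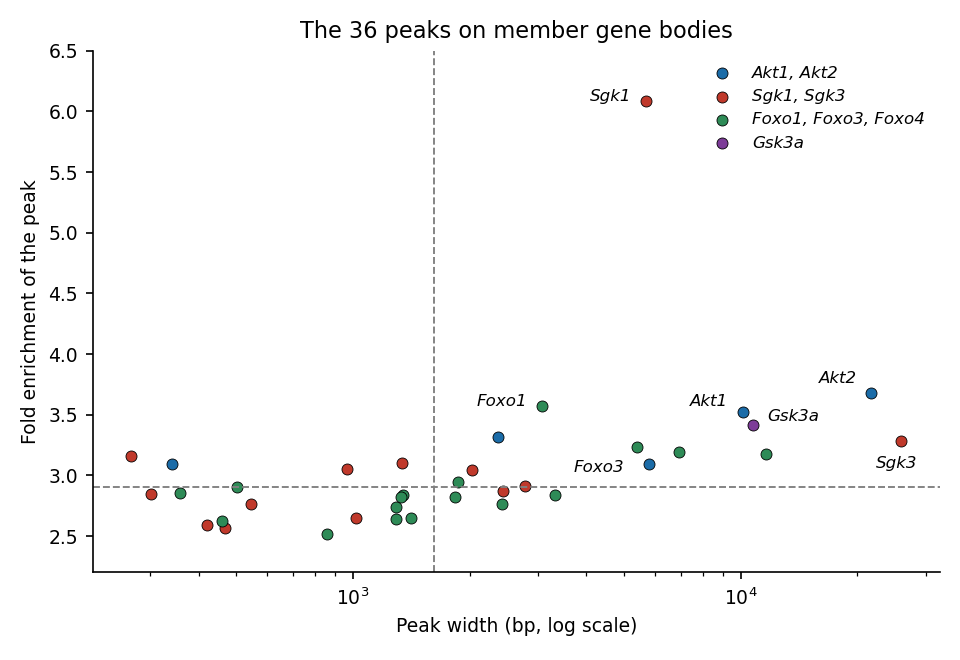
Width (bp, log axis) and fold enrichment of the 36 peaks on the bodies of the 8 marked members, 1 point per peak, coloured by family, with the highest peak of 7 members named and the medians of all 45575 peaks (1614 bp and 2.90) as dashed lines. The *Sgk1* peak, at 5688 bp and 6.08, stands above all others, which lie between 2.52 and 3.68.

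Along the body, 7 of the 8 marked members had more peak bases on the 3′ side of the midpoint than on the 5′ side, close to the 86.3% of marked genes that did. Counted by peak midpoints instead, 3 members (*Sgk1*, *Foxo4* and *Gsk3a*, with 1 peak each) had more peaks on the 3′ side. The peaks were evenly divided in *Akt1*, *Foxo1* and *Foxo3*, and *Akt2* and *Sgk3* had more on the 5′ side. The last annotated base lay inside a peak in *Akt1*, *Sgk1*, *Sgk3*, *Foxo3* and *Gsk3a*, which is 5 of 8 members against 60.7% of marked genes. *Akt2*, *Foxo1* and *Foxo4* ended 3088, 340 and 1238 bp after their last peak. No first exon of the 8 principal transcripts held a peak base, nor did 97.5% of those of marked transcripts with at least 2 exons, and 7 of 8 last exons did, against 86.7%. At their starts and ends the members thus stood near the shares of marked genes, and their median distance of 6305.5 bp from start to first peak lay within the quartiles of marked genes.

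Peak strength differed among the members. 5 of 9 had a peak at a P below 1e-05 (*Akt1*, *Akt2*, *Sgk1*, *Foxo1* and *Gsk3a*, with 1 such peak each), where 24.6% of protein-coding genes did. Under that threshold *Sgk3*, *Foxo3* and *Foxo4* had none. The threshold cut a range, since the best −log10 P was 5.09 in *Gsk3a*, 4.74 in *Sgk3* and 4.56 in *Foxo3*. *Sgk3* and *Foxo3* kept peaks at a fold enrichment of at least 3 and at a q below 0.01. Of the 36 peaks, 18 were above the median fold enrichment of all peaks and 18 were narrower than the median width. By width and height, the peaks on the members were thus spread about the medians of the whole list. 5 peaks, 1 each on *Akt1*, *Akt2*, *Sgk3*, *Foxo3* and *Gsk3a*, were wider than 10000 bp.

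The related genes *Gsk3b* and *Foxo6* stand outside the member list. *Gsk3b*, which encodes the close relative of GSK3A, carried 21 peaks over 33.2% of its body of 157084 bp, with a best fold enrichment of 4.02. *Gsk3a*, of only 9594 bp, was covered over 71.8% with a fold enrichment of 3.42, so these shares come from genes of very different length. *Foxo6* held 1 peak over 3.21% of its body, with a fold enrichment of 2.85, and none at a P below 1e-05.

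Around the members, H3K36me3 lay on most genes of the pathway. Of the receptors, adaptors and PI3K subunits 14 of 15 did, with a median covered share of 34.3%: *Erbb3* and *Erbb2*, receptors of the EGF family, were covered over 94.1 and 81.1%, *Pik3cb*, a catalytic PI3K subunit, over 71.6%, and *Pik3cg*, the catalytic subunit typical of leukocytes, over 0%. All 8 activators of AKT and SGK had a peak (median 50.6%), among them *Mtor* (83.7%) and *Mlst8* and *Rictor*, partners of mTOR (77.9 and 59.2%). *Prr5* and *Prr5l*, subunits of mTORC2 singled out after their values were seen, held 1 peak each, over 0.837 and 0.155% of the body, and 6 of the 8 activators kept a peak at a fold enrichment of at least 3 and 5 at a P below 1e-05. Of the phosphatases and other inhibitors, 12 of 14 did (median 29.5%), with *Ppp2r1a* and *Ppp2r1b*, scaffolds of the phosphatase PP2A, at 71.9 and 58.4% and *Inppl1*, the lipid phosphatase SHIP2, at 59.9%. *Inpp5d*, the haematopoietic relative of *Inppl1*, and *Trib3* had none.

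Of the AKT and SGK substrates, 13 of 15 had a peak on the body, over a median of 62.0%. *Acly*, the enzyme that makes cytosolic acetyl-CoA, was covered over 94.1%, *Mdm2*, the ubiquitin ligase of p53, over 92.9% and *Ndrg1*, a substrate of SGK1, over 87.7%, whereas *Nos3*, the nitric oxide synthase of endothelium, and *Akt1s1* were covered over 0%. All 14 genes that act on FOXO proteins were marked (median 51.1%), with *Ep300*, an acetyltransferase, at 83.4%, *Xpo1*, the nuclear exporter, at 82.1% and *Ywhaz*, a 14-3-3 protein, at 81.9%. Of the FOXO target genes, 17 of 24 were marked (median 33.5%), with *Txnip*, an inhibitor of thioredoxin, at 96.4%, *Rbl2*, an RB relative, at 87.9% and *Fbxo32*, the ubiquitin ligase atrogin-1, at 81.2%, and with *Tnfsf10* and *Trim63* at 0%. 10 of 13 substrates and partners of GSK3 were marked (median 43.0%), with *Csnk1a1*, *Axin2* and *Mcl1* at 96.3, 82.2 and 76.8% and *Gys2*, the glycogen synthase of liver, and *Frat1* at 0%. Among all protein-coding genes the share with a peak was 51.4%, and no test of the lists was run.

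**Figure D5:**
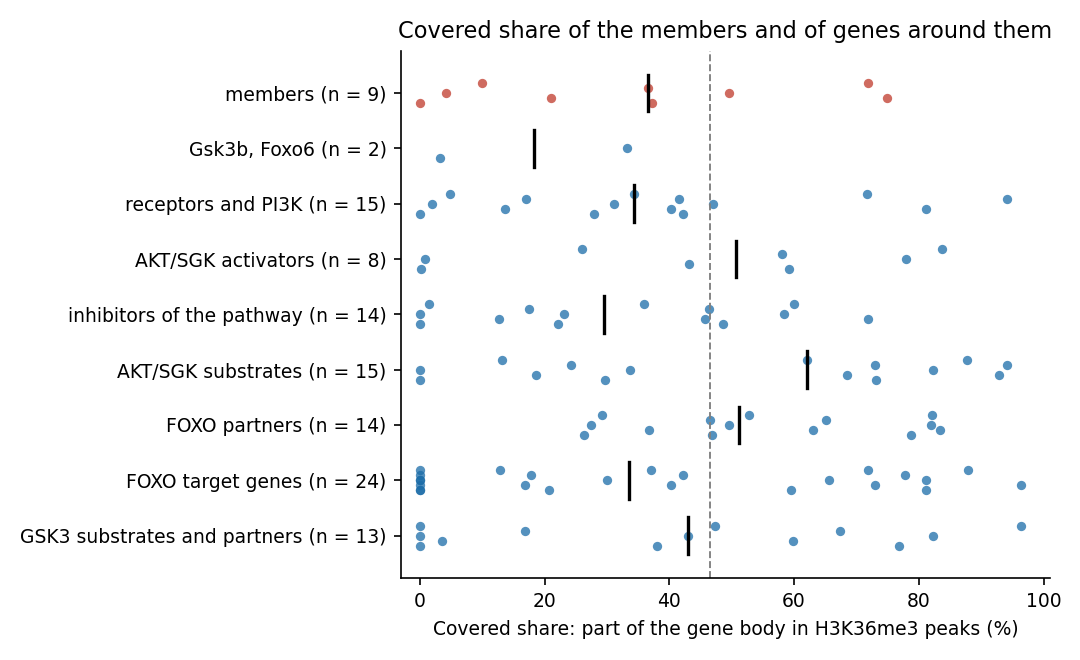
Covered share of the gene body (percent) for the 9 members (red) and for the genes of 8 lists around them (blue), 1 point per gene, with the median of each list as a black bar and the median of all marked protein-coding genes (46.4%) as a dashed line. The list medians run from 18.2% for *Gsk3b* and *Foxo6* to 62.0% for the AKT and SGK substrates.

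The labelled cell type was checked against markers. All 7 basal KC markers were marked on the body (median 89.9%, with *Krt5* at 96.0%), as were 4 of 7 markers of differentiated KCs (median 40.7%, with *Krt10* at 98.4% and *Flg* and *Lor* at 0%). None of 7 fibroblast markers was marked, while 2 of 6 melanocyte markers (*Pmel* at 15.3% and *Mitf* at 7.62%), 1 of 6 immune markers (*Cd68* at 100%) and 1 of 6 endothelial markers (*Pecam1* at 0.275%) were. *Cd68* is 1941 bp long, and the 1 peak on it was assigned to another gene. *Tyr*, *Dct*, *Ptprc* and *Tek* held no peak. The part of these other cells in the marks on the members was not tested.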

How the data were processed

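H3K36me3 ChIP DNA and input DNA from primary KCs were sequenced by the authors as single-end reads, from chromatin fixed with formaldehyde for 5 min by the methods and 10 min by the labels. After trimming (Cutadapt, Trimmomatic), the authors mapped reads with Bowtie2 2.2.6 to GRCm38. They called peaks with MACS2 2.1.1, with P-values cut at 0.01, and annotated them with ChIPseeker. Use of the input as control, and the depth, are not given in the sources used here. Input DNA was not analysed here. The deposited table gives each peak a width in bp, a distance to the assigned start, a fold enrichment (a ratio of ChIP signal to background) and −log10 P and q values, and no summit. Every deposited peak had a −log10 q of at least 1.31, so the table is stricter than the stated cut-off.

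Genes came from GENCODE vM21 on GRCm38, which holds all of the 14570 gene IDs assigned to peaks. A peak was on a gene when at least 1 bp overlapped the annotated body. Bodies were divided at the starts of protein-coding transcripts, with starts up to 500 bp apart taken as 1 group. Promoter sequences and miRNAs came from RefSeq tables on GRCm38.p6. The members and the gene lists were chosen with earlier results of these data known. Named genes were all members, every gene that overlaps a member or was assigned a peak on one, and, from each pathway list (not the cell type markers, of which a few examples are given), the 3 most widely covered genes and the 2 longest genes with no peak, where there were as many. An item of these lists is not reported here. With 1 library there was no test between samples, and background shares carry exact binomial intervals that cover counting error only.

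Alternatives kept only peaks of at least 3-fold enrichment, of P below 1e-05 or of q below 0.01. Others were merging of peaks no more than 1000 bp apart, overlaps of at least 500 bp or 10% of the body, at least 50% of the peak inside the body, the longest coding transcript as the body, assignment to the gene with most of the peak, a minimum covered share of 25% and peak midpoints. The overlap code was tested on simulated data. Software was Python 3.11.15 with pandas 2.3.3, NumPy 2.4.6, matplotlib 3.10.9 and SciPy 1.17.1.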

Additional observations from a re-analysis of the deposited data

How the results depend on the processing

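The counts rested most on the threshold for a peak. Only peaks at a P below 1e-05 gave 5 members with a peak on the body in place of 8, 4 assigned a peak in place of 7, 1 covered over at least 50% in place of 2, and 5 peaks on member bodies in place of 36. The covered share of *Akt1* was then 47.3%, that of *Foxo1* 3.62% (4.05% at a q below 0.01) and that of *Sgk3*, *Foxo3* and *Foxo4* 0%, while those of *Sgk1* and *Gsk3a* did not move. The number of peaks on member bodies was 16 at a fold enrichment of at least 3 and 21 at a q below 0.01. With a minimum covered share of 25%, 5 members passed. Counted by peak midpoints instead of bases, 3 of the members, with 1 peak each, had more peaks on the 3′ side, in place of 7. *Akt1*, *Foxo1* and *Foxo3* then had as many peaks on each side. Of 27 recomputed counts over the members, 19 stayed within 1.5 times the value reported. The pathway counts at the 3 stricter thresholds were chosen after seeing the data, and at a P below 1e-05 the FOXO target genes fell from 17 to 11 and the activators from 8 to 5. No paired analysis was possible because the series holds 1 ChIP library and 1 input library. Without replicates or depth, neither the spread of the covered shares nor the smallest detectable mark can be given.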
